A study of Homo sapiens with 15 samples.

Results

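ATF4, ATF3, ATF5, DDIT3, DDIT4, TRIB3, CEBPB, CEBPG, SESN2 and CHAC1 form a set of 10 genes of the integrated stress response, which was followed across all treatments of MT-2 cells. Members were taken by gene symbol in the array annotation. Each of the 10 symbols stood on exactly 1 of the 28926 transcript clusters of the array, and 18377 genes had a cluster of their own symbol. MT-2 is an HTLV-1-transformed human CD4+ T-cell line. The cells were cultured for 48 hours either untreated, or with ascorbic acid (AA, vitamin C) at a low (10 µg/ml), intermediate (50 µg/ml) or high (100 µg/ml) dose, or with 1000 IU/ml of IFN-α2A, an antiviral cytokine. The labels name no genetic change between groups, and all 5 share the integrated HTLV-1 provirus that defines the line. Affymetrix Human Gene 1.0 ST arrays gave 3 arrays per group, 15 in all, and a tag in the sample titles places 1 array of each group in each of 3 experiments. Experiments 2 and 3 carry the same date. The replicate number used here is that experiment, and the labels do not say how separate the cultures were, so that p-values measure the spread between these arrays, which may be technical.

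The integrated stress response starts when kinases that sense unfolded protein, amino acid shortage, double-stranded RNA or haem shortage phosphorylate the translation factor eIF2α. General translation then drops while the mRNA of the transcription factor ATF4 is translated more, so that ATF4 activity is set largely by translation and is not read directly from its mRNA. ATF4 pairs with C/EBP proteins on DNA and raises amino acid transporters, amino acid synthesis enzymes and further regulators, among them most genes of this set, and CHAC1, which breaks down glutathione, is widely used as a readout of the branch that runs through ATF4, ATF3 and DDIT3.

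One array stood apart before any comparison. The mean correlation of high-dose AA replicate 3 with the other arrays was 0.976, against 0.991 to 0.995 for the other 14, and the standard deviation of its values was 2.02 against 2.12 to 2.18. In experiment 3 the brightest 25% of clusters had a median log2 change of -0.19 under high-dose AA and the dimmest 25% one of 0.23. In the other 2 experiments these medians were 0.08 and -0.01 for the brightest clusters, and -0.01 and 0.04 for the dimmest. All 10 members lay above the array median on all arrays, except DDIT4 on high-dose AA replicate 3. High-dose changes of the members and medians of the gene lists are therefore also given without that array. CD4, IL2RA and CCR4 lay above the upper quartile of every array, and CD2, CD7 and FOXP3 above the median. CD3D, CD3E, CD3G and CD5 lay below the median on every array. Of the markers of other cells, MS4A1, LYZ and KLRD1 were below the lower quartile on all arrays, and CD8A, CD8B, CD14, CD79A and HBB below the median. The NK cell marker NCAM1 lay above the median on all 15 arrays, and CSF1R on 1 of them. As a check of the IFN-α label, 14 of 17 interferon-stimulated genes measured rose under IFN-α, with a median log2 change of 2.24 over the list and of 4.99 ± 0.17 (SE) for IFI44L, whose values went from 4.62, 4.64 and 4.64 in untreated cells to 10.01, 9.46 and 9.40.

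All 10 members were lower under high-dose AA than in untreated cells, with log2 changes from -1.09 for DDIT4 to -0.10 for CEBPG and a median of -0.42. Over all clusters 45.6% were lower, and their median change was 0.02. No member passed the threshold in limma without a block (unadjusted p under 0.001, which 0.0691% of clusters passed in the lower direction), and 4 members, ATF3, DDIT3, SESN2 and CHAC1, were lower at p under 0.05 (3.62% of clusters). With experiment as a block 7 members were lower at p under 0.05 (6.5% of clusters). Without high-dose AA replicate 3 and without a block the median of the members was -0.28, all 10 changes were still negative, and 3 members, ATF3, SESN2 and CHAC1, were lower at p under 0.05 (1.71% of clusters). With the block and without that array 7 members were lower at p under 0.05 (3.55% of clusters), with ATF5 in place of ATF4. CHAC1 had the smallest p of the set, with a log2 change of -0.61 ± 0.15 (SE, 3 arrays a group), which is 65.5% of the untreated level (adjusted p = 0.385, limma). With experiment as a block, CHAC1 was the 1 member that passed (adjusted p = 0.107, limma), where 0.232% of clusters passed in that direction. Its linear slope on dose passed without the block. IFN-α left the set with a median change of 0.03, and no member passed. The study had itself listed CHAC1 among the genes most lowered by high-dose AA on these same arrays, so that its direction here is not independent evidence. From these arrays the study also named ATF3 among genes that likely mediate cell death under high-dose AA. The results for ATF3 are therefore not independent of the study either. All 10 members were chosen with earlier results of these data known. Their counts beside the shares of all clusters, here and below, are thus a description and no independent evidence. In RNA from whole cultures, fewer cells of a type and less RNA of a gene per cell cannot be told apart.

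**Figure D1:**
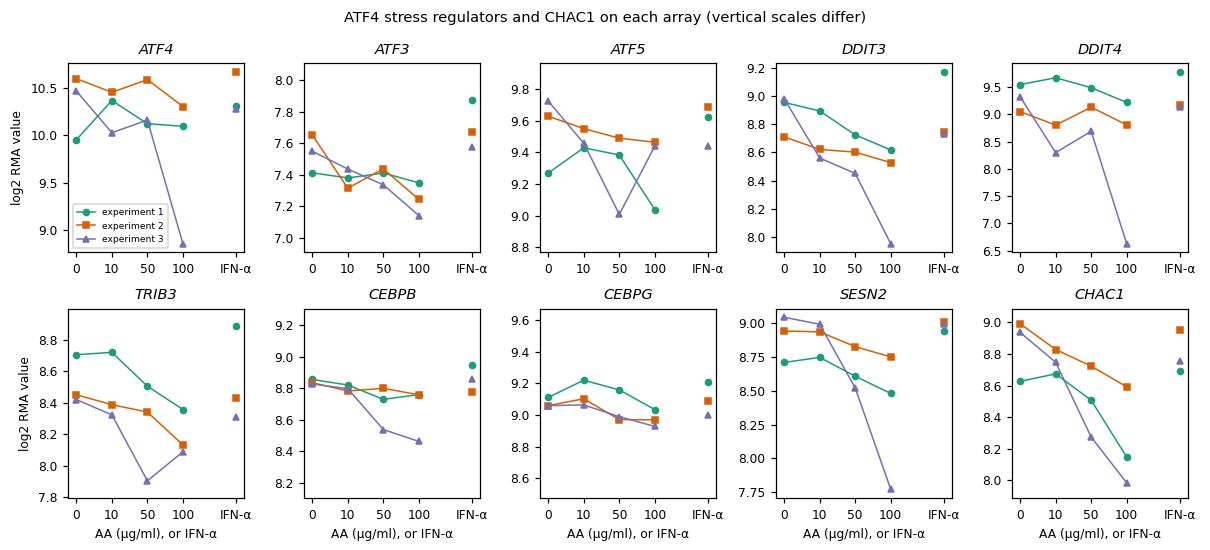
Log2 RMA values of the 10 genes on each of the 15 arrays. The horizontal axis gives the AA dose in µg/ml (equally spaced, not to scale) with IFN-α to the right, the vertical axis the log2 value on a scale that differs between panels, and lines join the AA arrays of 1 experiment. DDIT3 has 3 lines that go down at each step, and ATF4, DDIT4 and SESN2 have a high-dose point of experiment 3 far below the other 2.

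ATF4, the factor at the centre of the response, read 9.95, 10.60 and 10.47 on the untreated arrays of experiments 1 to 3. The high-dose arrays read 10.09, 10.30 and 8.86. Only the third lay below the untreated range, and experiment 1 was higher than its untreated array by 0.14. The log2 change of -0.59 ± 0.30 (SE) had a 95% interval from -1.23 to 0.05 (adjusted p = 0.479, limma), and it was -0.14 ± 0.20 without high-dose AA replicate 3. The ATF4 mRNA difference thus rests on 1 array. At the low dose ATF4 read 10.37, 10.45 and 10.03, at the intermediate dose 10.12, 10.59 and 10.16, and under IFN-α 10.30, 10.67 and 10.28. These ranges all overlap the untreated one.

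DDIT3 (CHOP) encodes a C/EBP-family factor that takes part in death of cells under lasting endoplasmic reticulum stress. Its untreated values were 8.96, 8.71 and 8.98. They were followed by 8.90, 8.62 and 8.56 at the low dose, 8.73, 8.60 and 8.45 at the intermediate dose, and 8.62, 8.53 and 7.95 at the high dose. Every step of dose carried a lower value in every experiment, an order that 0.0795% of all clusters (23 of them) showed, and the high-dose arrays did not overlap the untreated ones. The high-dose change was -0.52 ± 0.17 (SE, adjusted p = 0.422, limma), and -0.31 ± 0.14 without high-dose AA replicate 3. The slope was -0.46 ± 0.14 per 100 µg/ml, short of the threshold (adjusted p = 0.412, limma). Under IFN-α DDIT3 read 9.17, 8.74 and 8.73, a change of -0.0003 with an interval from -0.37 to 0.37.

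ATF3, an ATF/CREB-family factor that many stresses induce, read 7.41, 7.65 and 7.55 in untreated cells and 7.35, 7.24 and 7.14 at the high dose. The 2 ranges did not overlap. At the low dose it read 7.38, 7.31 and 7.44, and at the intermediate dose 7.41, 7.44 and 7.34, and both sets overlapped the untreated and the high-dose range. Its high-dose change was -0.29 ± 0.09 (SE, adjusted p = 0.422, limma) with all arrays and -0.24 ± 0.10 without high-dose AA replicate 3, so that this gene depended little on that array. With IFN-α it read 7.87, 7.67 and 7.58, higher than the untreated array of the same experiment in all 3, by 0.46, 0.02 and 0.03, and 9.47% of clusters were higher in all 3. That change of 0.17 ± 0.09 did not pass (interval -0.03 to 0.37).

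Set against each other, high-dose AA and IFN-α differed in ATF3. It was lower under high-dose AA by a log2 difference of -0.46 ± 0.09 (SE), the only member past the threshold in that comparison (adjusted p = 0.0559, limma), where 0.449% of clusters passed in the lower direction. With experiment as a block ATF3 (adjusted p = 0.0453) and CHAC1 (adjusted p = 0.0432, limma) passed, against 0.712% of clusters. Neither passed with the block when high-dose AA replicate 3 was also left out (adjusted p = 0.108 for both, limma, 0.522% of clusters). Without the block and without that array ATF3 passed (-0.41 ± 0.10, adjusted p = 0.18, limma, 0.356% of clusters). The high-dose arrays lay below all IFN-α arrays for ATF3, DDIT3, CEBPB, SESN2 and CHAC1, 5 of 10 members against 3.74% of all clusters. All 10 differences were negative, from -1.14 for DDIT4 to -0.12 for CEBPG.

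The other 3 transcription factors showed small differences. CEBPB, a C/EBP factor of inflammation and of the stress response, read 8.86, 8.84 and 8.83 untreated and 8.76, 8.76 and 8.46 at the high dose. The high-dose arrays all lay below the narrow untreated range, with a change of -0.18 ± 0.09 (SE), which became -0.08 ± 0.08 without high-dose AA replicate 3. CEBPG, which dimerizes with other C/EBP proteins and with ATF4, read 9.11, 9.06 and 9.06 untreated and 9.03, 8.97 and 8.93 at the high dose, a change of -0.10 ± 0.08, and of -0.07 ± 0.08 without high-dose AA replicate 3. It was the 1 member higher at the low dose, by 0.05 ± 0.08. ATF5, whose mRNA is under the same kind of translational control as that of ATF4, read 9.27, 9.63 and 9.73 untreated and 9.04, 9.46 and 9.44 at the high dose. These ranges overlapped although all 3 experiments were lower, by 0.23, 0.16 and 0.28. Its change of -0.23 ± 0.15 was -0.29 ± 0.16 without high-dose AA replicate 3, and -0.32 ± 0.14 with the block and without that array. Both fits without that array kept untreated replicate 3, the highest untreated array at 9.73. Their changes are thus not means of the remaining differences within experiments, -0.23 and -0.16. Within experiments the largest of the 3 differences was that of experiment 3.

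Among the effectors, TRIB3, a pseudokinase that ATF4 and DDIT3 induce and that acts back on ATF4, had almost the same difference in each experiment. It read 8.70, 8.45 and 8.42 untreated and 8.36, 8.13 and 8.09 at the high dose. The differences within experiments were -0.35, -0.32 and -0.33, with an SD of 0.01. Its level differed between experiments. The limma change was -0.33 ± 0.17 without a block (SE, adjusted p = 0.484, limma) and -0.33 ± 0.09 with it (adjusted p = 0.166, limma). Without high-dose AA replicate 3 the change was -0.28 ± 0.19 without a block and -0.38 ± 0.10 with it (adjusted p = 0.25, limma). Both fits kept the other experiment 3 arrays, untreated replicate 3 among them. The -0.38 is thus not the mean of the remaining differences, -0.35 and -0.32, and does not show a larger effect. At the intermediate dose the differences were -0.20, -0.11 and -0.52.

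SESN2 encodes sestrin 2, a leucine sensor that restrains mTORC1. It read 8.71, 8.94 and 9.05 untreated, and 8.75, 8.94 and 8.99 at the low dose. The intermediate dose gave 8.61, 8.83 and 8.52, and the high dose 8.48, 8.75 and 7.77. The low-dose values differed from the untreated array of the same experiment by 0.04, -0.01 and -0.05, and from there each step was lower in all 3 experiments. The high-dose change of -0.57 ± 0.19 (SE, adjusted p = 0.422, limma) was -0.28 ± 0.12 without high-dose AA replicate 3, so that 1 array carried a large share of it.

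DDIT4 (REDD1), another inhibitor of mTORC1 signalling, had the largest high-dose change of the set and the largest SE. Its untreated values were 9.55, 9.05 and 9.33, and the high-dose values 9.22, 8.81 and 6.62. The last of these is far below every other array. The change of -1.09 ± 0.52 (SE) had an interval from -2.21 to 0.02 (adjusted p = 0.463, limma), and it was -0.30 ± 0.34 without high-dose AA replicate 3. At the low dose DDIT4 read 9.67, 8.80 and 8.30 and at the intermediate dose 9.49, 9.13 and 8.69, so that in experiment 3 the low dose was below the intermediate one. The order of the doses was not followed in any experiment.

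CHAC1 read 8.63, 8.99 and 8.94 in untreated cells. It read 8.67, 8.83 and 8.75 at the low dose, 8.51, 8.72 and 8.27 at the intermediate dose, and 8.15, 8.59 and 7.98 at the high dose. The high-dose arrays lay below all untreated arrays and were the lowest AA arrays of their experiment in all 3, as they were for ATF3, DDIT3, CEBPG and SESN2 (2.31% of clusters). Group means ran from 8.85 ± 0.20 (SD, n = 3) in untreated cells through 8.80 ± 0.14 under IFN-α, 8.75 ± 0.08 at the low dose and 8.50 ± 0.22 at the intermediate dose to 8.24 ± 0.32 at the high dose. No step between neighbours in that order exceeded the larger SD of its 2 groups, except that from the low to the intermediate dose. The slope was -0.60 ± 0.13 per 100 µg/ml (SE, adjusted p = 0.356, limma), and CHAC1 was the only member with a slope past the threshold, where 0.0899% of clusters fell. Without high-dose AA replicate 3 the slope was -0.49 ± 0.14 and did not pass (adjusted p = 0.829, limma). With the block it passed with that array (adjusted p = 0.0534, limma, 0.162% of clusters) and without it (adjusted p = 0.178, limma, 0.083% of clusters, with TRIB3 as the other member). The high-dose change without that array was -0.48 ± 0.15, and with the block it still passed (-0.51 ± 0.11, adjusted p = 0.155, limma), as did 0.128% of clusters. These fits kept the other experiment 3 arrays, and the differences within experiments 1 and 2 were -0.48 and -0.40. At the intermediate dose the change was -0.35 ± 0.15 (SE), the only member there at p under 0.05, where 1.47% of clusters were lower.

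**Figure D2:**
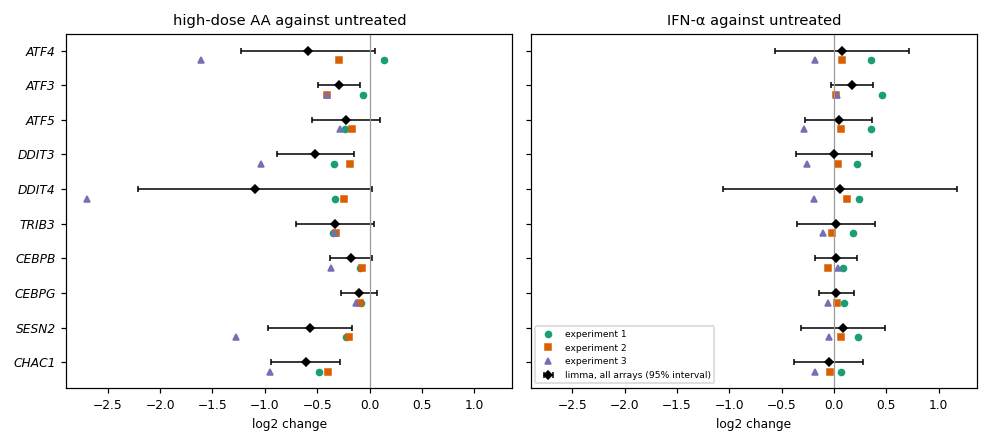
Log2 change of each gene against untreated cells under high-dose AA (left) and IFN-α (right). Diamonds with bars are limma estimates with 95% intervals over all arrays, and coloured points are the differences within each experiment. The high-dose points of TRIB3 lie at -0.35, -0.32 and -0.33, those of DDIT4 at -0.33, -0.24 and -2.70, and the IFN-α intervals all include 0.

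Across the dose course the experiments carried unequal weight. The median change of the 10 members was -0.06 at the low dose, -0.23 at the intermediate dose and -0.42 at the high dose, and over all clusters it was 0.01, 0.01 and 0.02. The 3 medians share the untreated arrays. At the high dose the median within experiments was -0.23, -0.22 and -0.68, at the intermediate dose -0.08, -0.11 and -0.52, and at the low dose 0.04, -0.08 and -0.15. Experiment 3 thus had the largest differences at each dose. Without its arrays the high-dose and intermediate-dose medians of the group changes were -0.22 and -0.09. Its intermediate-dose array had a mean correlation of 0.993 with the other arrays, but the standard deviation of its values was 2.12. Only high-dose AA replicate 3 had a lower one, 2.02. The brightest clusters had a median change of -0.07 on that intermediate-dose array and the dimmest 0.06, with the same signs as at the high dose. How far this lowered the intermediate-dose median of -0.52 was not tested. High-dose values did not overlap the untreated ones for 6 members, ATF3, DDIT3, TRIB3, CEBPB, CEBPG and CHAC1, where 3.66% of all clusters were lower without overlap. All members but ATF4 were lower at the high dose in all 3 experiments (9 of 10, against 11.4% of clusters). The group means of DDIT3, TRIB3, CEBPB, SESN2 and CHAC1 were lower at each step of dose (8.11% of clusters). At the intermediate dose all 10 changes were negative (47.4% of clusters) and none passed the threshold (0.0311% lower). At the low dose 9 were negative (47.7%) and none passed (0.0173% lower), nor was any lower at p under 0.05 (1.49%).

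Under IFN-α 8 members had positive and 2 negative changes, from -0.05 for CHAC1 to 0.17 for ATF3, where 54.3% of clusters were negative. None passed the threshold in limma, and 0.273% of clusters did in the higher direction. At p under 0.05 none was higher either (0.868% of clusters). CHAC1 read 8.69, 8.95 and 8.76, inside the range of its untreated arrays, and SESN2 lay between 8.94 and 9.01, also inside that range. The members differed in sign between experiments. In experiment 1 all 10 were higher than the untreated array, with a median of 0.22, in experiment 2 the median was 0.03, and in experiment 3 8 of 10 were lower, with a median of -0.14. The median change under IFN-α turned to -0.05 without experiment 1 and was 0.14 without experiment 3. The untreated array of experiment 1 was the lowest of the untreated arrays for ATF4, ATF3, ATF5, SESN2 and CHAC1 and the highest for TRIB3, DDIT4, CEBPB and CEBPG. Intervals stayed wide, from -0.38 to 0.28 for CHAC1 and from -1.06 to 1.17 for DDIT4, so that differences of these sizes cannot be told from none.

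ATF4 acts on DNA as a pair with a C/EBP protein, at a site whose 8 central letters are written TGATGNAA, or TTNCATCA on the opposite strand. RefSeq promoter windows (GRCh38.p14, 250 bases before to 50 after a start, printed 5′ to 3′ on the strand of the gene) were matched by symbol for all 10 members, 19 windows in all. The 8 letters stood in a window of 3 members, ATF3, CEBPG and CHAC1, and in 4.46% of 27305 genes (3.62% of 35116 windows). Among the other ATF4 targets listed below, 13 of the 32 genes with a window had them. The 3 windows are shown because they hold the letters in 1 member whose high-dose change passed with the block and in 2 whose change did not, with the match in capitals. CHAC1 is at chr15:40953221-40953520 (plus strand, match at 40953262 to 40953269), ATF3 at chr1:212565157-212565456 (plus strand, match at 212565216 to 212565223) and CEBPG at chr19:33373863-33374162 (plus strand, match at 33374071 to 33374078).
CHAC1: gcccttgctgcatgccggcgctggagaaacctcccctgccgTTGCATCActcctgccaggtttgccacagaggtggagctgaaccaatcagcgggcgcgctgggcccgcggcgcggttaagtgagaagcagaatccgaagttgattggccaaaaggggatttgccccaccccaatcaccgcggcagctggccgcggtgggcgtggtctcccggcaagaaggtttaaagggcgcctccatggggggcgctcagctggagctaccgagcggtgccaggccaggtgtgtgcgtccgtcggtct
ATF3: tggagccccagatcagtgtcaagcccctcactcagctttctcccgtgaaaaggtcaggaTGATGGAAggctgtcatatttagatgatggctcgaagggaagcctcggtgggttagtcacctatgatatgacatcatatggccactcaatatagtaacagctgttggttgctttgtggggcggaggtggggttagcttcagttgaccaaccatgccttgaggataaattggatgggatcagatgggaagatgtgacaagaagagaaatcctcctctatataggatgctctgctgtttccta
CEBPG: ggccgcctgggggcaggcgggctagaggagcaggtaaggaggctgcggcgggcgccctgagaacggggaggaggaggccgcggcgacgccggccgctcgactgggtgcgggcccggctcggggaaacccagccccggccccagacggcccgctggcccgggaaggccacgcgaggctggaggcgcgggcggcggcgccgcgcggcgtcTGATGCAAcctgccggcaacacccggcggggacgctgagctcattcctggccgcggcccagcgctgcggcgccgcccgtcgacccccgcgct
The match starts 209 bases before the start in CHAC1, 191 in ATF3 and 42 in CEBPG, and in CHAC1 it lies on the opposite strand. The cAMP response element TGACGTCA stood in no member window (1.85% of all windows, 2.25% of genes). The AP-1 letters TGANTCA stood in a window of DDIT3 and of ATF5 (9.37% of genes, 7.71% of all windows). None of these motifs overlapped another in these windows. A match describes letters only.

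Other ATF4 targets, a list of 42 genes mainly for amino acid transport, synthesis and tRNA charging, of which 40 were measured, gave 34 negative changes under high-dose AA and a median of -0.26, against 0.02 over all clusters. INHBE, a secreted activin subunit, fell by 0.72 on the log2 scale (SE 0.12, adjusted p = 0.26, limma). SLC7A11, the cystine importer that supplies glutathione synthesis, fell by 0.64 (SE 0.11, adjusted p = 0.26, limma), and it alone of the list passed at the intermediate dose too (-0.55 ± 0.11). Its high-dose arrays read 8.42, 8.64 and 8.62 and the untreated ones 9.32, 9.03 and 9.23, with no array apart. The 2 genes next in p were SLC6A9, a glycine transporter (-0.45 ± 0.11), and MARS1, the cytosolic methionyl-tRNA synthetase (-0.38 ± 0.10). With the block 5 of the list passed, where 0.232% of clusters passed in the lower direction. These were INHBE, SLC7A11 and SLC6A9 together with STC2, a secreted glycoprotein, and ASNS, asparagine synthetase. The last 2 were named after their values were seen. The study's own list of lowered genes holds INHBE, SLC7A11 and SLC6A9, so that these are not independent of the choice either. The list median within experiments was -0.11, -0.12 and -0.52, lowest in experiment 3 as for the members. Without high-dose AA replicate 3 the list median was -0.14, and the changes were -0.56 ± 0.10 for INHBE and -0.67 ± 0.12 for SLC7A11, the 2 that passed without the block then (0.0553% of clusters). At p under 0.05, 19 of the 40 were lower with all arrays (3.62% of clusters), 26 with the block (6.5%) and 12 without that array (1.71%).

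The machinery upstream of ATF4, 15 genes for eIF2α kinases, phosphatase subunits and eIF2B, had 0 called at any AA dose (limma). At the high dose 1 was lower at p under 0.05 (3.62% of clusters), and 3 were with the block (6.5%). The high-dose median was -0.07, and 0.05 without high-dose AA replicate 3. With all arrays at that dose DNAJC3, an inhibitor of the kinases, read -0.34 ± 0.12, EIF2B5 -0.17 ± 0.08, EIF2AK3 (PERK) -0.20 ± 0.10 and PPP1R15A (GADD34), itself an ATF4 target, -0.28 ± 0.15 (log2 change ± SE). EIF2AK2 (PKR), the kinase that senses double-stranded RNA, rose under IFN-α by 2.24 ± 0.13 (adjusted p = 2.29e-07, limma), from 8.60, 8.50 and 8.52 to 10.74, 10.70 and 10.90. The 10 members did not pass in the same cells. EIF2AK4 and EIF2B5, the next in p under IFN-α, changed by -0.09 ± 0.09 and -0.07 ± 0.08. Of 20 measured genes of the other branches of the unfolded protein response none passed under high-dose AA. At p under 0.05, 3 were lower (limma, 3.62% of clusters), 4 with the block (6.5%), and 1 without high-dose AA replicate 3 and without a block (1.71%). The list median was -0.12, and -0.06 without that array. The median within experiments was -0.01, -0.07 and -0.35. The smallest p belonged to DNAJB9 (-0.43 ± 0.12), XBP1 (-0.32 ± 0.11), EDEM1 (-0.32 ± 0.13) and PDIA6 (-0.18 ± 0.09), which are chaperones and components of protein quality control and the factor that induces them.

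Relatives of the members gave a mixed picture, with 0 of 15 measured called at the high dose (limma), 9 negative and 6 positive changes, and a median of -0.07. At p under 0.05, 1 was lower (3.62% of clusters). With the block 3 were lower (6.5%) and CHAC2 was higher (9.66% of clusters in that direction). Without high-dose AA replicate 3 that median was 0.01 and 7 were negative. CHAC2, another glutathione-cleaving enzyme, read 9.24, 8.86 and 9.08 untreated and 9.34, 9.08 and 9.54 at the high dose. It was higher in all 3 experiments, with a change of 0.26 ± 0.15 that did not pass (adjusted p = 0.517, limma), while CHAC1 was lower in all 3. SESN3 was lower (-0.54 ± 0.21) and SESN1, a p53 target, read 0.18 ± 0.23. TRIB1 and TRIB2 read -0.15 ± 0.10 and -0.03 ± 0.20 beside -0.33 for TRIB3. DDIT4L read -0.30 ± 0.16. CEBPA and CEBPD read -0.07 ± 0.12 and -0.10 ± 0.09, close to CEBPG. JDP2, which is also on the ATF4 target list, read -0.17 ± 0.09. No difference between relatives was tested.

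Glutathione genes cover the synthesis, use and breakdown of the substrate of CHAC1. Of 12 measured, 1 passed at the high dose, SLC7A11, and the median was -0.06, which was 0.03 without high-dose AA replicate 3. At p under 0.05, 2 were lower without the block (3.62% of clusters) and 2 with it (6.5%). With the block GSR and CHAC2 were also higher at p under 0.05 (limma, 9.66% of clusters). GGT7 read -0.39 ± 0.15 (-0.16 ± 0.09 without that array), GSR, which reduces oxidized glutathione, 0.17 ± 0.09, and CHAC2 as above. The genes for both subunits of the rate-limiting ligase stayed near 0 within intervals from -0.19 to 0.28 for GCLC and from -0.26 to 0.27 for GCLM, both named after their values were seen. Of 13 measured p53 targets, a group to which SESN2 and DDIT4 also belong, none passed, also not at p under 0.05 with or without the block (limma), with a median of -0.09 and changes from -0.30 for CDKN1A to 0.18 for SESN1. The median within experiments was 0.21, -0.15 and -0.26, so that its sign differed between them, and the list median was -0.05 without high-dose AA replicate 3. FAS read -0.14 ± 0.07, ZMAT3 -0.24 ± 0.16 and TNFRSF10B -0.24 ± 0.19.

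DDIT4 is also a hypoxia target, and that list had the lowest high-dose median of the 8 lists. Of its 14 measured genes, DDIT4 left out, 12 were negative under high-dose AA (45.6% of clusters), with a median of -0.48. None passed, and 2 were lower at p under 0.05 (3.62% of clusters). With the block 11 were lower at p under 0.05 (6.5%). Without high-dose AA replicate 3 and without a block 0 were (limma, 1.71%), with a median of -0.15. VEGFA read -0.61 ± 0.23, NDRG1 -0.27 ± 0.12, SLC2A1 -0.41 ± 0.21 and PGK1 -0.33 ± 0.17. Within experiments the high-dose median was -0.01, -0.27 and -1.07, and at the low dose 0.12, -0.18 and -0.67. At the low dose the list median was thus lower than at the intermediate dose (-0.24 against -0.08), as it was for DDIT4, whose changes were -0.38 and -0.20. The gene whose pattern over the 15 arrays was most like that of DDIT4, of 11567 candidates, was PGK1, a glycolytic enzyme of this list (Pearson's r = 0.99). That r includes high-dose AA replicate 3, where both genes had their lowest value, and it was not computed without that array.

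The members were set against the medians of these lists. Over 15 arrays DDIT4 followed the hypoxia list median with r = 0.97, and with r = 0.96 without high-dose AA replicate 3. For CHAC1 the same values were 0.48 and 0.05, for DDIT3 0.89 and 0.76, and for TRIB3 0.69 and 0.71. With each experiment centred on its mean, r with the hypoxia median was 0.95 for DDIT4 and 0.71 for CHAC1. With the median of the other ATF4 targets, r was 0.80 and 0.68 for CHAC1, 0.91 and 0.69 for SESN2, 0.93 and 0.86 for DDIT3, 0.86 and 0.52 for DDIT4, and 0.82 and 0.33 for ATF4, in each case with all arrays and then without that array. The points share the arrays, the 3 experiments and the treatments, so these coefficients describe the 15 arrays and no more. Their difference was not tested.

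Among the members themselves, the 45 pairs had r from 0.08 to 0.91 over the 15 arrays. SESN2 and CHAC1 had r = 0.91, and 0.92 without high-dose AA replicate 3. ATF5 and CHAC1 had 0.73 and then 0.92, whereas ATF4 and DDIT4 had 0.76 and then 0.06. The first pair was alike on the remaining arrays and the last one was not. DDIT3 and TRIB3 had 0.81 and 0.87. Outside the set, the genes most like CHAC1 were SLC6A9 (r = 0.94), ASS1 (0.93), the enzyme that makes argininosuccinate, INHBE (0.93), EBF4 (0.91) and C1RL (0.91). The single most similar gene was NADSYN1 for ATF4 (0.98), AARS1, the alanyl-tRNA synthetase, for DDIT3 (0.98), PCK2, the mitochondrial PEP carboxykinase, for SESN2 (0.95), DNAJC12 for TRIB3 (0.94), MAP3K4 for CEBPB (0.95), CEP95 for ATF3 (0.90), BIN3-IT1 for ATF5 (0.92) and FOSL2 for CEBPG (0.88). SLC6A9, INHBE, AARS1 and PCK2 are on the list of other ATF4 targets. These r values with genes outside the set include high-dose AA replicate 3 and were not computed without it. On that array ATF4 read 8.86 and NADSYN1 7.97, each its lowest value.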

How the data were processed

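Total RNA of MT-2 cells was hybridized to 1-colour Affymetrix Human Gene 1.0 ST arrays. The log2 values deposited by the authors are RMA values, which the study's methods say were computed in xps (probe background removed, arrays quantile-normalized, probes summarized per cluster), and were used without further normalization. The number of arrays, 3 a group, limits the precision. Clusters were named from the platform annotation with symbols updated through RefSeq, and 19310 clusters had 1 symbol, 1752 several and 7864 none. The genome build of that annotation is not given in the sources used here, so cluster positions are not stated.

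Treatments were compared with untreated cells, and high-dose AA with IFN-α, in 1 limma model over 15 arrays without a block (limma 3.58.1, R 4.3.3, statmod 1.5.0, default empirical Bayes). The slope on dose used the 12 arrays without IFN-α, scaled to 100 µg/ml. A cluster counted as called, or as passing, where the raw p was below 0.001 (two-sided), as in the study's methods. The calls were not all the same as the study's. Its table of genes lowered by high-dose AA holds CHAC1 and SLC6A9, and neither passed here without a block. The reason for this difference was not tested. If nothing changes, 28.9 of 28926 clusters would pass. Adjusted p-values are Benjamini-Hochberg over all clusters. The fits were tested on simulated data with independent normal values. These held no experiment effect and no array that stands apart, so that the test does not cover either. Intervals are 95% intervals of the limma estimate.

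The replicate number comes from a tag in the titles that 1 array of each group shares. After subtraction of group means, 30 pairs of arrays with the same number had a median correlation of 0.281 (-0.194 to 0.536) and 60 other pairs one of -0.172. Untreated replicate 3 did not follow this (-0.194 to 0.020 with the 4 arrays of its number), and there the pairing rests on the tag alone.

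The members and the 8 gene lists (upstream of ATF4, other ATF4 targets, other branches of the unfolded protein response, relatives, glutathione, p53, hypoxia, interferon-stimulated genes) were chosen with earlier results of these data known. Named are all members, some of their relatives, up to 4 genes of each list with the smallest p under high-dose AA, up to 3 under IFN-α for the interferon and upstream lists, the 5 genes most correlated with CHAC1 and the first one for each other member, unless stated otherwise. Promoter windows are from RefSeq (GRCh38.p14) and were searched on both strands. The figures were drawn with matplotlib 3.10.9.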

Additional observations from a re-analysis of the deposited data

How the results depend on the processing

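All 10 members kept a negative change under high-dose AA, and against IFN-α, under each of the 27 other settings that give a value, and a negative slope under each of 26. Each member has 1 cluster, so the mean over clusters of a gene changes nothing. Without the dimmest 25% of clusters, with clusters of 1 symbol alone, with trended and robust variance and after cyclic loess, the numbers of members called kept their values. After cyclic loess the median of no array moved by more than 0.0417.

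With the replicate block, fixed or random (consensus correlation 0.157), the members called were 1 instead of 0 under high-dose AA (CHAC1) and 2 instead of 1 against IFN-α (ATF3 and CHAC1), and the pairing by experiment changed no other call. The fixed block with high-dose AA replicate 3 left out, added after the data were seen, gave 1, then 0 against IFN-α and 2 for the slope (TRIB3 and CHAC1).

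With array weights 1 member, ATF3, passed under high-dose AA, and 0 had a slope past the threshold. In the main fit, without a block, no member had an adjusted p below 0.05 in any comparison, so 0 instead of 1 against IFN-α and for the slope. At p under 0.01 the counts were 4, 4 and 3. Over the 27 other settings the smallest adjusted p under high-dose AA was 0.00308 for ATF3 and 0.021 for DDIT3 (limma). It was 0.0233 for CHAC1 and 0.0377 for TRIB3 (limma), and above 0.05 for the other members. Against IFN-α it reached 8.11e-04 for ATF3 (limma). In a fit of the compared groups alone 0 passed against IFN-α.

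Leaving out 1 array or 1 experiment gave 0 to 2 members called under high-dose AA, 0 to 3 against IFN-α and 0 to 2 for the slope. CHAC1 passed under high-dose AA without untreated replicate 1 (-0.72), without high-dose AA replicate 2 (-0.79, with SESN2) and without experiment 2. Its slope did not pass without untreated replicate 2 or 3, low-dose AA replicate 2 or 3, high-dose AA replicate 1 or 3, or experiment 1 or 3. ATF3 against IFN-α did not pass without IFN-α replicate 1 or without any 1 experiment. The median change of the members ranged from -0.51 to -0.22 at the high dose, -0.31 to -0.094 at the intermediate dose, -0.18 to -0.034 at the low dose (lowest without untreated replicate 1) and -0.047 to 0.14 under IFN-α, where the sign turned without IFN-α replicate 1 and without experiment 1.

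Small uncalled changes turned sign. With array weights IFN-α changes were -0.035 for ATF4, -0.050 for ATF5 and -0.0053 for TRIB3. After cyclic loess SESN2 at the low dose was 0.014 and DDIT3 under IFN-α 0.011. Leaving out arrays or experiments, IFN-α changes ranged from -0.11 to 0.21 for ATF4, -0.11 to 0.21 for ATF5, -0.021 to 0.064 for CEBPB, -0.030 to 0.071 for CEBPG, -0.17 to 0.017 for CHAC1, -0.15 to 0.13 for DDIT3, -0.16 to 0.18 for DDIT4, -0.012 to 0.16 for SESN2 and -0.16 to 0.13 for TRIB3. At the low dose they ranged from -0.29 to 0.14 for ATF4, -0.20 to 0.041 for ATF5, -0.10 to 0.066 for SESN2 and -0.17 to 0.041 for TRIB3, and at the intermediate dose from -0.24 to 0.080 for ATF4 and -0.40 to 0.012 for DDIT4. The cause of these shifts was not tested.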
